A study of Rattus norvegicus with 10 samples.

Results

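The cytoplasmic ribosomal protein genes encode the proteins of the large and small subunits of the ribosome that translates nuclear-encoded mRNA. They were taken as the probe sets that the platform annotation assigns to 1 gene whose symbol is an Rpl or Rps number (with an optional a, x, y or l and a further digit), Rplp0 to Rplp2, or Rpsa. This gave 48 of the 14217 genes named by a probe set of their own, and 55 of 31099 probe sets. Of these genes, 42 had 1 probe set, 5 had 2 (Rpl3, Rpl7, Rpl7l1, Rpl14 and Rps24) and Rpsa had 3. Another 36 probe sets are annotated to several genes that include a ribosomal protein symbol. They were kept apart and are described at the end.

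The study asked how mutation of BMPR2, a receptor of bone morphogenetic proteins, alters expression in cultured vascular smooth muscle. Total RNA came from A7r5, an established rat cell line labelled as vascular smooth muscle, kept in normoxia at about 50% confluence in DMEM with 10% serum. The descriptions of all 10 samples state stable transfection, although the titles of the empty vector samples call them native A7r5. There were 5 groups of 2 arrays: empty vector, wild-type human BMPR2, and BMPR2 with a cytoplasmic tail mutation (CD, 2579-2580delT), a kinase domain mutation (KD, C994T) or an extracellular domain mutation (ED, T354G). The labels do not say whether a line was 1 clone, which promoter drove the construct, or whether each pair of arrays stems from separate cultures. The p-values therefore cover only array-to-array spread, part of which may be technical. Values are log2 RMA signals. Without detection calls, no probe set could be called present or absent.

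The 2 KD mutant arrays stood apart from the other 8. Over 31042 non-control probe sets, the Pearson correlation was 0.992 to 0.996 among the 8, 0.992 between the KD arrays, and 0.709 to 0.719 between a KD array and any of the 8. The array median was 4.94 and 4.95 on the KD arrays and 5.31 to 5.35 on the others. The markers went with the same split. Tagln, a smooth muscle actin-binding protein, averaged 11.33 on the KD arrays and 4.98 on the other 8, and Acta2 averaged 9.38 and 6.26. Of 9 tested smooth muscle markers 6 rose, 2 fell (Smtn by 2.07 and Mylk by 0.61) and Myh11 did not pass. All 7 tested epithelial markers fell, and Cdh1, the epithelial cadherin, averaged 5.87 and 9.71. With each array centred on its median, 6 of the 7 fell. Of 6 tested fibroblast markers 4 rose, with the collagen gene Col1a2 at 13.62 and 3.88, and Pdgfra and Fbln1 fell by 1.31 and 1.04. The 1 tested endothelial marker and the 2 tested macrophage and leukocyte markers fell too. A probe set was tested only if it reached log2 4.82 on at least 2 arrays. On both KD arrays all 4 endothelial, 4 of 5 macrophage and leukocyte and 4 of 9 epithelial markers, tested or not, were below that. On all other 8, 3 of 8 fibroblast and 3 of 11 smooth muscle markers were below it. Markers that passed through arrays of 1 kind only could hardly fail to differ. Over all 22502 probe sets tested, 35.4% rose and 56.2% fell. The summed level of 11 smooth muscle markers was 13.2 to 13.4 on the KD arrays and 11.6 to 11.8 on the others, and that of 9 epithelial markers was 10.1 and 12.0 to 12.7. Of the smooth muscle markers, Tagln, Actg2 and Cnn1 were near the low end of the scale on the 8 arrays that carry the same cell label. Smtn and Mylk were higher on those 8 than on the KD arrays, and Myh11 did not pass. Each KD difference given here stands beside this split, and the part of the markers, or of the cells behind them, in it was not tested.

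A ribosome holds 1 copy of nearly every ribosomal protein, and cells make the set in step. Most of these mRNAs begin with a terminal oligopyrimidine run (TOP), a C at the start followed by further pyrimidines, through which mTOR signalling and the RNA-binding protein Larp1 set their translation. The genes are short and highly expressed, and rodent genomes carry many processed copies of them, so array probes can match several loci. A few members, such as Rpl3l, Rpl7l1, Rps27l and Rpl39l1, are paralogs of the standard subunits.

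RefSeq promoter sequence (rat assembly GRCr8) was found for 43 of the 48 genes. The motif searched was a C followed by at least 4 pyrimidines, on the gene's own strand and whatever base comes before the C. The annotated start base was such a C in 12 of them (27.9%), against 2.63% of all 33469 promoters. Such a C lay within 10 bases of the start in 29 (67.4%), against 28.9%. The windows below run from 10 bases before the start to 20 from it, and are shown because genes with and without the motif moved both ways on the KD arrays. Capitals mark the pyrimidines from the motif's C nearest to the start, and in several windows, Rpl35 among them, pyrimidines also lie directly before it. The first 4 have the C at the start.

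Rpl14 (chr8:129163610-129163639, + strand): ggccctctccCTTCTCgctgagcgccgcca
Rpl35 (chr3:43165902-43165931, - strand): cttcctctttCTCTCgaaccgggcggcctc
Rplp0 (chr12:46718371-46718400, - strand): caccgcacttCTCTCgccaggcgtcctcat
Rpl35a (chr11:81235002-81235031, - strand): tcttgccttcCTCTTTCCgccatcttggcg
Rps24 (chr16:96507-96536, + strand): ggtcctcttttCCTCCTTTacagctcgggc
Rpl7l1 (chr9:21695708-21695737, + strand): cagatgcattgtgggaagCCTTTaactcgt
Rpl11 (chr5:153560783-153560812, - strand): cttgaagcttgtttggtgctggggagcatc
Rpl3 (chr7:113507971-113508000, - strand): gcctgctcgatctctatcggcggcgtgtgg
Rpsa (chr8:128728869-128728898, + strand): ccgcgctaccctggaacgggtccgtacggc

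In Rps24 and Rpl7l1 the nearest such C lies 1 and 8 bases after the annotated start. In Rps24 it belongs to a longer pyrimidine stretch that crosses the start. Rpl11, Rpl3 and Rpsa have no such C within 10 bases of the start. Where none was found, only these letters at this annotated start are described.

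Across the 8 arrays other than KD, the bright ribosomal protein signals varied little and the dim ones more. On all 10 arrays 42 of the 55 probe sets were above log2 8, and 13 were at or below it on at least 1. The range over the 8 arrays had a median of 0.172 log2 units for the 42, against 0.369 for all 22502 probe sets tested and 0.225 for the 411 tested probe sets with a mean of 11 or more. For the other 10 tested members it was 0.472, with none under 0.2. Rpl12, which binds at the base of the stalk where elongation factors dock, had the narrowest range of the members at 0.055, from 13.98 to 14.04. Rpl39, a short protein lining the exit tunnel, had the widest at 0.961, from 3.77 to 4.73. Over the 42, any 2 of the 8 arrays correlated at 0.989 to 1.00, and a KD array correlated with them at 0.739 to 0.772. These correlations are across genes, which are not independent replicates.

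**Figure D1:**
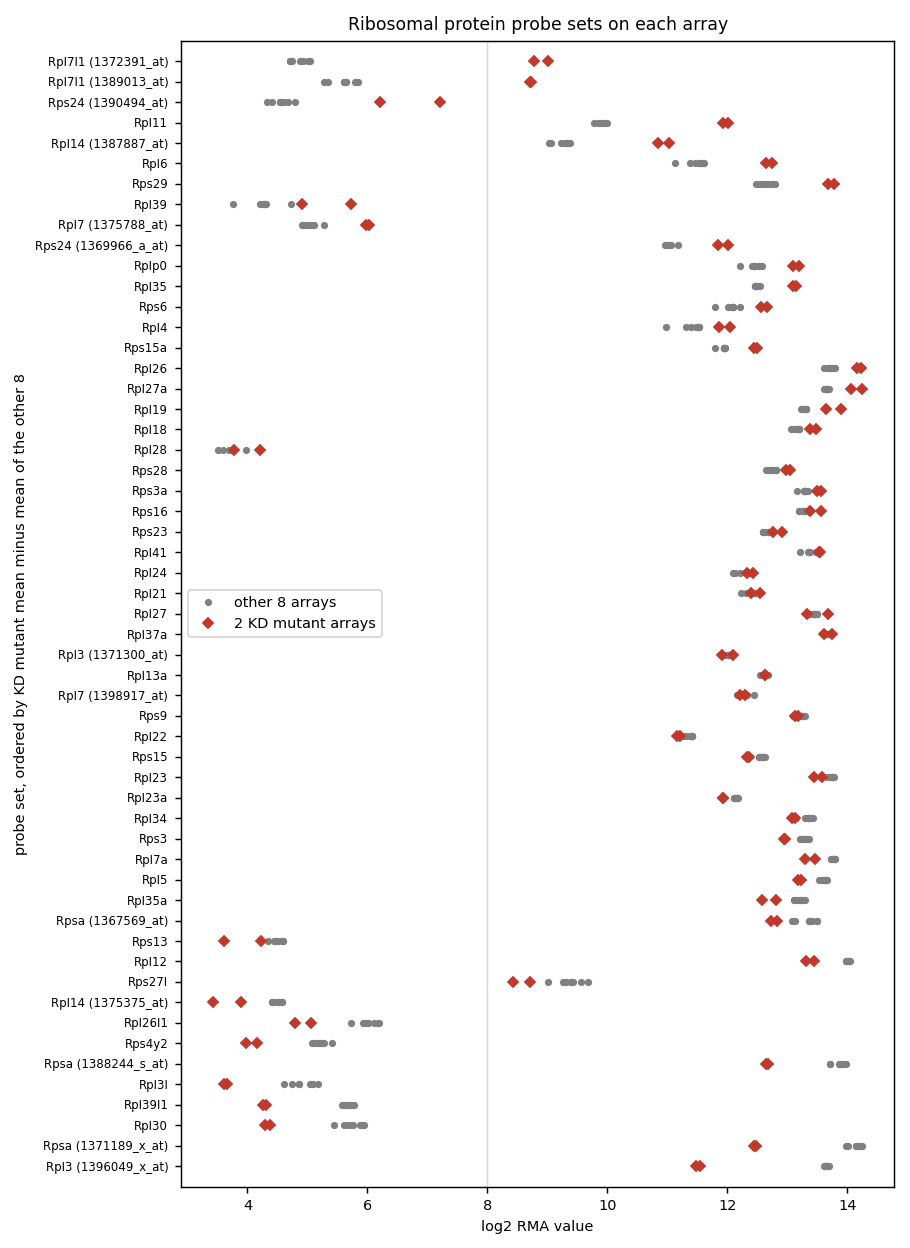
Log2 RMA value (x axis) of each of the 55 ribosomal protein probe sets (y axis, ordered by the KD mean minus the mean of the other 8 arrays); each point is 1 array, with KD arrays as red diamonds and the other 8 as grey circles. The 8 grey points of a probe set lie close together, and the KD points lie to the right of them at the top (Rpl7l1, Rps24, Rpl11) and to the left at the bottom (Rpl3, Rpsa, Rpl30).

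A probe set was tested if it reached log2 4.82, the 40th percentile of all values, on at least 2 arrays. Of the members, 52 (46 genes) passed. Rpl28 (1397237_at), Rps13 (1392232_at) and the dim Rpl14 probe set (1375375_at) did not. Rps24 (1390494_at) and Rpl39 passed only through the KD arrays, and Rpl30, Rpl39l1, Rpl3l and Rps4y2 only through the others, so these 6 could hardly fail to differ between them. Changed means an adjusted p under 0.05 by limma, adjusted by Benjamini-Hochberg over all 22502 probe sets.

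On the KD arrays, against the mean of the other 4 groups, ribosomal protein probe sets moved both ways. Among those that passed the filter on arrays of both kinds, Rpl7l1, Rpl11 and Rpl14 were the farthest up and Rpl3 and Rpsa the farthest down. Rps24 (1390494_at) and Rpl30 (1386517_at) also lay far out, but had passed through arrays of 1 kind only. Of 52, 23 rose, 20 fell and 9 did not pass, so 82.7% changed, against 91.5% of all tested. Among the 42 members above log2 8 on every array 78.6% changed, against 82.9% of the 2090 tested probe sets above it. By direction, 35.4% of all tested rose and 56.2% fell. The median difference was 0.07 for the members and -0.56 for all tested. It was 0.07 for those 42 members and -0.20 for those 2090 probe sets. A difference beyond 1 log2 unit was seen for 16 of 52 members (30.8%), against 63.7% of all tested. Among the 42 members above log2 8 on every array it was 7 (16.7%), against 33.6% of the 2090 tested probe sets that meet the same rule. Both KD arrays lay above all others for 24 members and below all others for 20, against 34.6% and 54.9% of all tested. Of the 46 members that passed the filter on arrays of both kinds, 21 rose, 16 fell and 9 did not pass.

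The balance of rises and falls depended on how arrays were put on 1 scale. With quantile normalization 19 rose and 26 fell, where 91.3% of all tested changed. With each array centred on its median 34 rose and 10 fell, where 91.5% of all tested changed. The median over all tested was -0.56 as deposited, -0.47 after quantile normalization and -0.12 after centring. By all 3 scalings 29 members changed in the same direction, 19 up and 10 down, and 14 of the 43 lost the call or turned. The 29 include all members that had passed the filter through arrays of 1 kind only. These are Rps24 (1390494_at) and Rpl39 among the rises, and Rpl30, Rpl39l1, Rpl3l and Rps4y2 among the falls. The share of all tested that kept its direction by all 3 scalings was not counted.

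**Figure D2:**
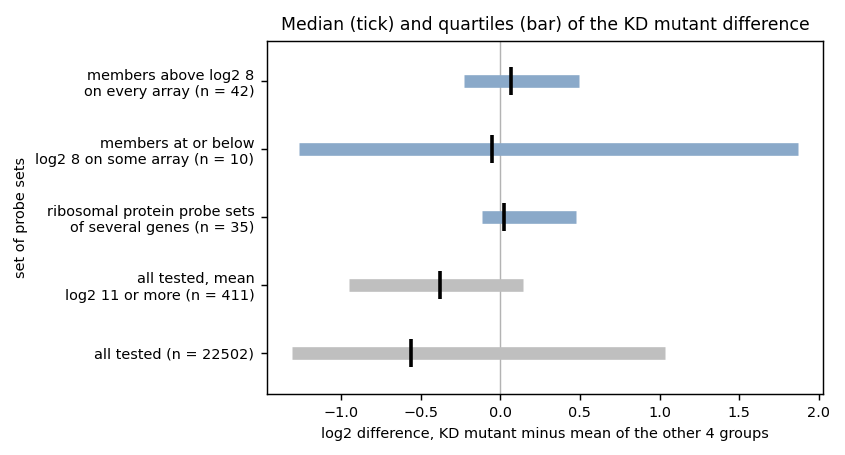
Log2 difference of KD mutant arrays from the mean of the other 4 groups (x axis) for sets of probe sets (y axis); ticks are medians and bars run between quartiles over probe sets. The bright ribosomal protein probe sets had a median of 0.07, and all 22502 tested had a median of -0.56 with a wider bar.

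From 4 listed genes of the P stalk, which recruits translation factors, and its base, 2 were tested with a probe set of their own. They changed in opposite directions, where 91.5% of all tested changed. Rplp1, read by a probe set of several genes (1371307_at), was not counted. That probe set read 13.56 and 13.68 on the KD arrays and 13.39 to 13.60 on the others, so the arrays overlapped. Rplp0, the stalk's anchor, read 13.20 and 13.09 on the KD arrays and 12.21 to 12.58 on the other 8, with a median of 12.46. The KD arrays lay above all others, and Rplp0 rose by 0.69 (SE 0.0854, limma adjusted p 6.79e-06). Rpl12 read 13.44 and 13.31 on the KD arrays against 13.98 to 14.04, with a median of 14.01. Here the KD arrays lay below all others, a difference of -0.63 (SE 0.0765, limma adjusted p 5.49e-06). Both directions held under all 3 scalings.

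Rpl11 and Rpl5 join 5S rRNA in a particle that docks on the large subunit and, when free, binds the p53 regulator Mdm2. Rpl11 read 12.01 and 11.92 on the KD arrays and 9.78 to 9.99 on the other 8, with a median of 9.91. The groups did not overlap, and Rpl11 rose by 2.06, a 4.18-fold difference (SE 0.0826, limma adjusted p 2.06e-10). Rpl5 read 13.17 and 13.23 on the KD arrays and 13.53 to 13.66 on the others, with a median of 13.63. It was lower on both KD arrays, by -0.42 as deposited (limma adjusted p 0.000164), but by -0.03 with arrays centred (adjusted p 0.733). The difference between the changes of the pair was not tested.

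From 8 listed genes at the peptide exit tunnel and its mouth, 6 were tested. Of these 6 genes 5 rose and 1 fell, with a median difference of 0.52, where 91.5% of all tested changed and 35.4% rose. Rpl39, 1 of the 5, rose by 1.05 at the low end of the scale and had passed the filter only through the KD arrays. Rpl35, at the tunnel mouth near the signal recognition particle, read 13.09 and 13.15 on the KD arrays and 12.45 to 12.54 on the others, with a median of 12.48. These arrays did not overlap, and Rpl35 rose by 0.64 (SE 0.0749, limma adjusted p 4.11e-06). Rpl26 and Rpl19 rose by 0.49 and 0.47. Rpl4, whose loop forms the tunnel's narrow point, rose by 0.55 as deposited but missed the threshold after quantile normalization at 0.18 (adjusted p 0.0896). Rpl23a was -0.23 as deposited and turned to 0.16 with arrays centred (adjusted p 0.0576).

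Rpl14 and Rpl6, also of the large subunit, both rose. Rpl14 (1387887_at) read 11.02 and 10.85 on the KD arrays and 9.02 to 9.37 on the other 8, with a median of 9.31. The KD arrays lay well above, and Rpl14 rose by 1.69, or 3.22-fold (SE 0.0798, limma adjusted p 9.48e-10). Rpl6, its neighbour on the subunit surface, read 12.65 and 12.74 against 11.13 to 11.61, with a median of 11.53. It too was higher on both KD arrays, by 1.22 (SE 0.105, limma adjusted p 2.06e-07). Rpl35a, a gene of Diamond-Blackfan anaemia, was lower by -0.51 as deposited and by -0.12 with arrays centred, where it lost the call (adjusted p 0.206).

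The dim Rpl30 probe set (1386517_at) read 4.37 and 4.29 on the KD arrays and 5.45 to 5.94 on the others, with a median of 5.74. It fell by 1.40 on the log2 scale (SE 0.112, limma adjusted p 1.04e-07), with both KD arrays below the filter level. A second probe set, annotated to Rpl30 together with 3 copies (1398774_at), read 13.02 and 12.87 on the KD arrays and 12.98 to 13.11 on the others, so those arrays overlapped. The probe sets nearest to no difference were Rpl37a (0.00), Rpl3 (1371300_at, -0.00), Rpl13a (-0.01) and Rpl7 (1398917_at, -0.03), with SE of 0.0764 to 0.0801. Rpl37a, a zinc-binding protein, read 13.75 and 13.61 on the KD arrays and 13.65 to 13.72 on the other 8, where the arrays overlapped. With arrays centred all 4 were higher, at 0.36 to 0.39.

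In the small subunit 9 of 17 tested probe sets rose, 7 fell and 1 did not pass. In the large subunit 14 of 35 rose, 13 fell and 8 did not pass. Over all tested 35.4% rose and 56.2% fell, and the subunit splits were counted on the values as deposited only. From 14 listed genes of the small subunit head 5 were tested. Of these 5 genes 3 rose (Rps29, Rps28 and Rps16) and 2 fell (Rps3 and Rps15), with a median of 0.20. Only Rps29 rose after quantile normalization, and with arrays centred 4 rose and none fell. Rps29, a zinc-finger protein, read 13.67 and 13.77 on the KD arrays and 12.48 to 12.79 on the other 8, with a median of 12.63. It was higher on both KD arrays, by 1.09 or 2.13-fold (SE 0.0758, limma adjusted p 2.96e-08), and by all 3 scalings. Rps16 and Rps28 missed the threshold after quantile normalization (adjusted p 0.104 and 0.0618), and Rps3 was 0.05 with arrays centred (adjusted p 0.524). Rps15 turned to 0.17 there (adjusted p 0.0460). Rps6, the protein phosphorylated by the S6 kinases, read 12.67 and 12.57 on the KD arrays against 11.79 to 12.21, with a median of 12.08. The groups did not overlap and Rps6 rose by 0.56 (SE 0.0955, limma adjusted p 0.000116).

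The list of ribosomal protein genes mutated in Diamond-Blackfan anaemia, an inherited failure of red cell production, held 18 genes. Ribosomal protein genes read only by probe sets of several genes, such as Rps19 (1371377_at, -0.07) and Rps26 (1367596_at, -0.06), were not counted. Of the 10 listed genes tested with a probe set of their own, 7 rose, 2 fell and 1 did not pass. Their median was 0.38, and the share changed was near the 91.5% of all tested. Rpl11, Rps29 and Rps24 had the larger rises, Rpl35a and Rpl5 fell, and Rpl27 was 0.05 with an adjusted p of 0.608. With arrays centred both falls were lost and 8 genes rose, and after quantile normalization 6 rose and 2 fell.

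From 7 listed paralog genes 4 were tested. Rpl7l1 rose and Rpl3l, Rps4y2 and Rps27l fell, under all 3 scalings. Rpl3l and Rps4y2 had passed the filter only through the arrays other than KD. The median size of change of the 4 genes was 1.23, against 1.25 over all tested and 0.50 over the Diamond-Blackfan genes. Rpl7l1, a relative of Rpl7, read 8.77 and 9.01 on the KD arrays with 1372391_at and 4.70 to 5.05 on the other 8, with a median of 4.88. With 1389013_at it read 8.72 and 8.73 against 5.28 to 5.84, with a median of 5.62. Neither probe set overlapped between groups. They rose by 4.03 (16.3-fold, SE 0.108, limma adjusted p 5.72e-12) and 3.13 (8.75-fold, SE 0.0866, limma adjusted p 7.28e-12).

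Rpl3l, the striated muscle relative of Rpl3, read 3.60 and 3.66 on the KD arrays and 4.62 to 5.18 on the others, with a median of 4.95. It fell by 1.30 on the log2 scale (SE 0.120, limma adjusted p 4.00e-07). Rps27l, a p53-responsive relative of Rps27, read 8.71 and 8.42 against 9.01 to 9.68, with a median of 9.40, and fell by 0.81 (SE 0.126, limma adjusted p 5.41e-05). Rps4y2 fell by 1.15. Rpl39l1 and Rpl26l1, which were not in the paralog list and are named for the size of their change, fell by 1.38 and 1.09. Of these falling paralogs, Rps27l alone was above log2 8 on every array. Like Rpl3l and Rps4y2, Rpl39l1 had passed the filter only through the arrays other than KD.

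Among pairs of probe sets for 1 gene, the KD arrays changed the 2 signals by different amounts in all 6 tested pairs of members. Of the 6, 2 are Rpsa pairs that share the probe set 1371189_x_at. The Rps24 pair was tested only because 1390494_at had passed the filter through the KD arrays, so its change was not free of the filter. The test took, within each array, the probe set with the higher mean minus the other, and 3748 of 4642 such pairs on the platform (80.7%) also differed by limma. The median size was 1.06 for the member pairs and 1.15 for all pairs. For ED against wild type, 0 of the 6 differed, and 0% of all pairs did.

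For Rpl3, a protein near the catalytic centre, 1396049_x_at read 11.48 and 11.54 on the KD arrays and 13.61 to 13.69 on the other 8, with a median of 13.65. The other probe set, 1371300_at, read 12.10 and 11.91 against 11.95 to 12.05, with a median of 12.02. The first thus fell on both KD arrays, by 2.14 (4.40-fold, SE 0.0745, limma adjusted p 5.85e-11), while the second overlapped. The within-array difference was 1.60 to 1.71 on the 8 arrays and -0.62 and -0.37 on the KD arrays, a change of -2.13 (SE 0.119, limma adjusted p 1.53e-10). The suffix _x_at marks a probe set with probes shared with other transcripts. Of 151 such probe sets tested, 72.2% fell, with a median of -1.04, against 55.9% of the 21361 with the plain suffix _at.

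Rpsa, the small subunit protein also known as the laminin receptor precursor, fell with all 3 probe sets as deposited. With 1371189_x_at it read 12.49 and 12.45 on the KD arrays and 13.98 to 14.24 on the others, with a median of 14.16, and fell by 1.67 (3.19-fold, SE 0.0744, limma adjusted p 5.48e-10). With 1388244_s_at it read 12.68 and 12.65 against 13.71 to 13.97 and fell by 1.19. With 1367569_at it read 12.83 and 12.73 against 13.07 to 13.50, a difference of -0.56 that became -0.17 and lost the call with arrays centred (adjusted p 0.0548). No probe set overlapped between groups. The _x_at probe set fell more than the plain one, a pair change of -1.12 (SE 0.113, limma adjusted p 2.12e-07), and more than the _s_at one, by -0.48 (adjusted p 0.00115).

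Rps24 had 2 probe sets that both rose. The bright one (1369966_a_at) read 12.01 and 11.84 against 10.97 to 11.17, and rose by 0.90 (SE 0.0809, limma adjusted p 3.42e-07). The dim one (1390494_at) read 7.20 and 6.20 against 4.32 to 4.79, with a rise of 2.14 (SE 0.193) that rests on KD arrays 1 log2 unit apart. It had passed the filter only through the KD arrays. The Rpl7 probe set 1375788_at read 6.03 and 5.98 against 4.91 to 5.27 and rose by 0.98, while 1398917_at read 12.30 and 12.21 against 12.16 to 12.44 and overlapped. The pair changes were -1.25 for Rps24, -1.01 for Rpl7 and -0.90 for Rpl7l1.

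**Figure D3:**
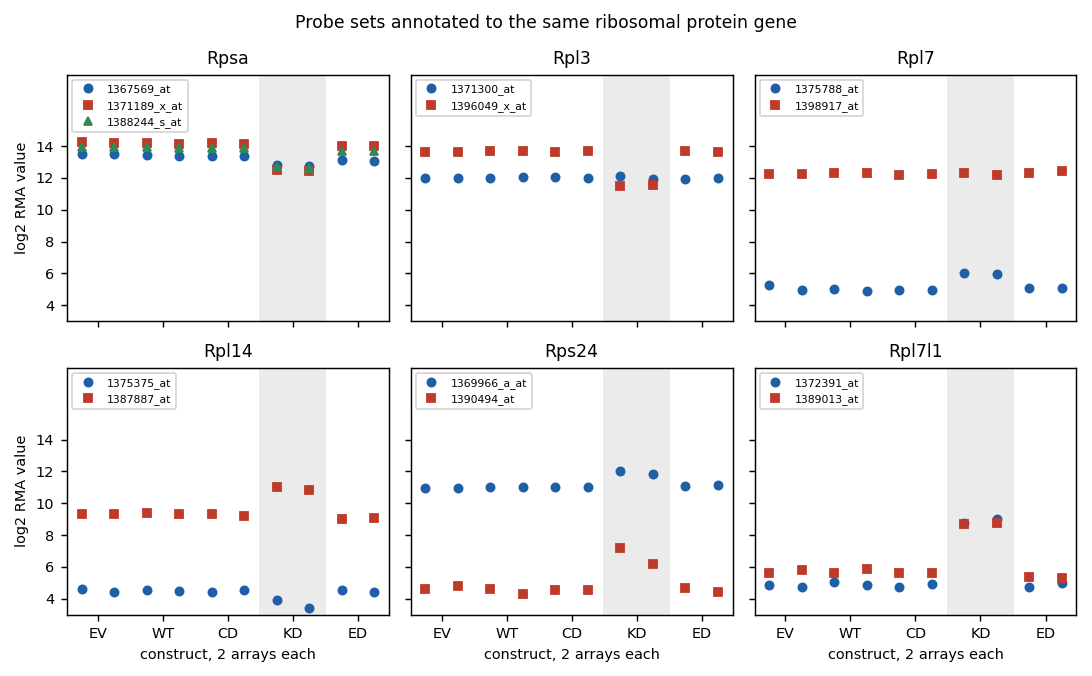
Log2 RMA value (y axis) on each of the 10 arrays (x axis, 2 per construct, KD shaded; EV is empty vector and WT is wild-type BMPR2) for the 6 genes with more than 1 probe set; colours and shapes mark probe sets. On the KD arrays the upper Rpl3 probe set dropped below the other (11.48 and 11.54 against 12.10 and 11.91), the 3 Rpsa probe sets crossed, and both Rpl7l1 probe sets rose.

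Against wild-type BMPR2 alone, 41 of 52 members changed on the KD arrays, against 89.6% of all tested. Of these 21 rose and 20 fell, against 34.5% and 55.1% of all tested. Above log2 8 on every array, 73.8% of members and 79.4% of all tested changed. The values were close to those against the 4 groups, with which this comparison shares arrays. Rpl7l1 (1372391_at) differed by 3.92, Rpl3 (1396049_x_at) by -2.17, Rpl11 by 2.09, Rpsa (1371189_x_at) by -1.69 and Rpl14 by 1.58. Rpl7l1 (1389013_at) differed by 2.999, Rpl39l1 by -1.32, Rpsa (1388244_s_at) by -1.23, Rps4y2 by -1.19 and Rps29 by 1.05.

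Among the constructs other than KD, no ribosomal protein probe set changed by limma in any of the 6 comparisons. Wild-type BMPR2 against empty vector gave 0 of 52, with 0.0133% of all tested changed. The CD mutant gave 0 against empty vector (0.111% of all tested) and 0 against wild type (0%). The ED mutant gave 0 against empty vector (0.529%), 0 against wild type (0.164%) and 0 against CD (0.351%). At an unadjusted p under 0.05 the members numbered 0, 0, 0, 6, 4 and 4 in that order. For ED against empty vector this was 11.5% of members and 11.4% of all tested. The member differences ran from -0.25 to 0.27 for wild type against empty vector and from -0.31 to 0.26 for CD against empty vector.

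The members with the lowest p in the ED comparisons were Rpsa, Rpl7l1, Rpl4, Rpl14 and Rps29. The plain Rpsa probe set (1367569_at) read 13.13 and 13.07 on the ED arrays, 13.50 and 13.50 with empty vector, 13.42 and 13.37 with wild type, and 13.36 on both CD arrays. The ED arrays were the lowest of these 8 and did not overlap the rest. The difference from empty vector was -0.39 (SE 0.0954, limma adjusted p 0.117), and the differences for 1371189_x_at and 1388244_s_at were both -0.23. With a variance prior that follows intensity and is robust to outliers, all 3 Rpsa probe sets passed (limma adjusted p 0.000295, 0.0102 and 0.00848). Rpl4 passed too (limma adjusted p 0.0434), and so did 2.19% of all tested. Without the KD arrays in the fit, the plain Rpsa probe set alone of the members passed (limma adjusted p 0.0489). In that fit 1.64% of all tested passed. On the KD arrays the plain Rpsa probe set was lower still, at 12.83 and 12.73.

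Rpl7l1 (1389013_at) read 5.34 and 5.28 on the ED arrays and 5.64 and 5.79 with empty vector, a difference of -0.40 (SE 0.110, limma adjusted p 0.157). Its other probe set read 4.72 and 5.01 against 4.87 and 4.70, so there the arrays overlapped. Rpl14 (1387887_at) read 9.02 and 9.06 on the ED arrays and 9.34 on both empty vector arrays, a difference of -0.29 (SE 0.101, limma adjusted p 0.267). Rpl4 read 10.97 and 11.32 on the ED arrays and 11.53 and 11.51 with empty vector, a difference of -0.37 (SE 0.125, limma adjusted p 0.260) with the 2 ED arrays far apart. Rps29 read 12.48 and 12.53 on the ED arrays and 12.79 and 12.74 on the CD arrays, a difference of -0.25 (SE 0.0959, limma adjusted p 0.429). Against wild type, the ED differences of lowest p were -0.41 for Rpl7l1 (1389013_at), -0.31 for Rpl14, -0.29 for Rpsa (1367569_at) and -0.38 for Rpl4, with limma adjusted p from 0.313 to 0.463. Against CD they were -0.31 for Rpl7l1 (1389013_at), -0.25 for Rpsa (1367569_at), -0.25 for Rps29 and -0.30 for Rpl4, with limma adjusted p from 0.386 to 0.487.

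In the comparisons among empty vector, wild type and CD, the 4 members of lowest p differed by less than 0.5 in each. In wild type against empty vector they were Rpl3l (0.27), Rpl26l1 (-0.20), Rps28 (0.13) and Rpl7 (1375788_at, -0.16), with a lowest limma adjusted p of 0.861. In CD against empty vector they were Rps27l (-0.31), Rps29 (0.18), Rpl7 (1375788_at, -0.18) and Rpsa (1367569_at, -0.14), with a lowest limma adjusted p of 0.639. In CD against wild type they were Rpl39 (0.49), Rps27l (-0.25), Rpl3l (-0.23) and Rpl30 (1386517_at, -0.20), all with limma adjusted p of 1.00.

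**Figure D4:**
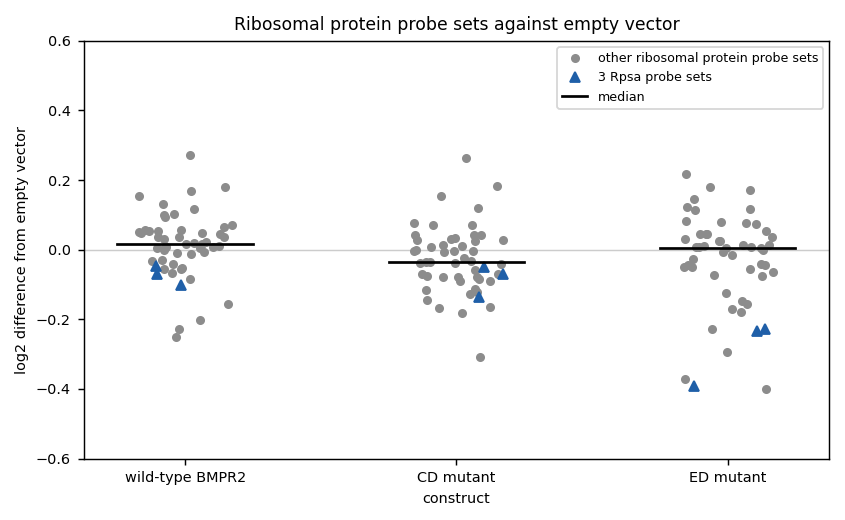
Log2 difference from empty vector (y axis) of the 52 tested ribosomal protein probe sets for 3 constructs (x axis); each point is 1 probe set, blue triangles are the 3 Rpsa probe sets and the line is the median. Medians lie near 0, and the Rpsa probe sets are at -0.39, -0.23 and -0.23 for the ED mutant.

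The other genes of translation gave the following counts on the KD arrays, with 91.5% of all tested changed. Rack1, a small subunit protein outside the symbol rule, fell by 0.79. Of 9 genes in the elongation factor list 3 rose (Eef1b2, Eef1e1 and Eef2k), 3 fell and 3 did not pass. Eef2k, a kinase, and Eef1e1 are not elongation factors in the strict sense. Eef2, the translocase, fell by 2.06, and Eef1a1, which delivers aminoacyl-tRNA, was -0.05 (adjusted p 0.566). Of 34 genes in the initiation factor list, which also holds Eif4ebp1, Eif4ebp2 and Larp1, 9 rose and 22 fell. Eif1ax, which helps scan for the start codon, rose by 6.55, and Eif4e, the cap-binding protein, fell by 1.38. Of 40 ribosome biogenesis genes 18 rose, 17 fell and 5 did not pass, with a rise of 3.33 for Dkc1, the pseudouridine synthase of rRNA, and a fall of 1.70 for Myc. Of 73 mitochondrial ribosomal protein genes, which build a different ribosome, 39 rose, 27 fell and 7 did not pass. The median size of change was 0.94 in that list and 0.96 in ribosome biogenesis. The splits moved with the scaling. After quantile normalization 7 genes of the initiation factor list rose and 25 fell, and 28 mitochondrial ribosomal protein genes rose and 35 fell. With arrays centred the counts were 13 and 15, and 47 and 17. For ribosome biogenesis they were 15 and 22, then 23 and 14. Of 5 S6 kinase and mTOR genes 2 rose and 3 fell, and with arrays centred 2 rose, 2 fell and 1 did not pass. Among them Rps6kb1 fell by 1.82 and Mtor rose by 1.74. The falls and rises of single genes named here held under all 3 scalings, and Eef1a1 was 0.34 with arrays centred (adjusted p 0.00122). In the comparisons without KD, 2 listed biogenesis genes changed, Polr1a (ED against empty vector, -0.55, limma adjusted p 0.0443) and Myc (ED against CD, -0.59, limma adjusted p 0.0482).

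Rises and falls were both found among genes with and without the pyrimidine motif at the annotated start. Of 11 tested probe sets of genes whose start base is the motif's C 6 rose and 4 fell, with a median size of 0.47. Of 35 tested of genes without it there 15 rose and 14 fell, with a median size of 0.55. Over all tested 35.4% rose and 56.2% fell. The motif splits were counted on the values as deposited only. Rpl14, Rpl35 and Rplp0, whose windows were given first, rose, and Rpl35a had the motif at the start too and was lower. Rpl11 rose and Rpl3 (1396049_x_at) and Rpsa fell with no such C near the start.

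The 36 probe sets annotated to several genes at once cover ribosomal proteins such as Rpl9, Rpl38, Rpl29 and Rpl8 together with copies or pseudogenes, so their signals cannot be assigned to 1 locus. Of 35 tested, 11 rose, 8 fell and 16 did not pass on the KD arrays, so 54.3% changed, against 91.5% of all tested. Their median was 0.03, against -0.56 over all tested. Most of them were above log2 8 on every array. Of the 2090 tested probe sets that meet that rule 82.9% changed, with a median of -0.20. The probe set of Rpl9 and 2 pseudogenes (1371301_at) read 12.90 and 12.75 on the KD arrays and 9.48 to 9.81 on the others, a difference of 3.10. That of Rpl8 with 2 copies (1384714_x_at) read 10.84 and 11.03 against 13.21 to 13.28, a difference of -2.30. These were the highest and the lowest of the 35, with no overlap between groups. Another Rpl8 probe set, annotated together with Rpl8-ps7 (1371305_at), read 12.62 and 12.65 on the KD arrays and 12.51 to 12.68 on the others. There the arrays overlapped, with a difference of 0.02.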

How the data were processed

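The authors deposited 1 log2 value per probe set and array. Per the submitters' processing notes these are RMA summaries, with the version and the set of arrays normalized jointly not given in the sources read. RMA compresses differences at low signal. Gene names came from the platform annotation: 20826 probe sets had 1 gene, 436 several and 9780 none, and 57 controls were left out. For 53 of 55 members the Entrez identifier was found in the RefSeq gene table (GRCr8). No further normalization was done. limma 3.58.1 in R 4.3.3 fitted 5 group means to all 10 arrays, for 22502 probe sets at or above the 40th percentile (log2 4.82) on at least 2 arrays, with Benjamini-Hochberg adjustment over all of them and a threshold of 0.05. The scripts were tested on simulated data. Precision is limited by 2 arrays per group. Summed marker levels are log2 of sums of unlogged values, with 1 probe set per gene. Gene lists used the probe set with the highest mean.

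Against the mean of the other 4 groups, the text names the 8 largest rises and falls that do not overlap, the 4 probe sets nearest to 0 and the pairs that differ. In other comparisons it names up to 10 changed members of lowest p, or the 4 lowest where none changed. Rplp0, Rpl12, Rpl5, Rps6 and others are named as list members, and the extremes of the probe sets of several genes were chosen after their values were seen. Members and lists were chosen with earlier results of these data known. Alternatives covered filter, scaling, variance prior, threshold, arrays in the fit, 1 probe set per gene, replicate block and left-out arrays.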

Additional observations from a re-analysis of the deposited data

How the results depend on the processing

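In the comparisons without KD, the number of changed members was 0 under all alternatives but 4. With an intensity trend and robust variance it was 4 for ED against empty vector, 1 for ED against wild type and 2 for ED against CD. Without the KD arrays it was 1 for ED against empty vector. The shares of all tested were 2.19%, 0.631%, 1.28% and 1.64% in that order. Requiring 1.5-fold left 22 members for KD against the other groups and 23 against wild type. This left 79.9% and 79.8% of all tested. With arrays centred, Rpl3 (1371300_at) turned to 0.39, Rpl13a to 0.38 and Rpl7 (1398917_at) to 0.36. Leaving out 1 array gave 38 to 44 members for KD against the others, 33 to 37 against wild type, 5 to 6 pairs, and 0 to 0 elsewhere. With no array left out, 91.5%, 89.6% and 80.7% of all tested probe sets or pairs changed in the KD comparisons, in that order. Same-numbered arrays did not deviate together (correlation of deviations from -0.03 to 0.14), so the numbers were not taken as pairs. A replicate block gave 43 members, 40 against wild type, 6 pairs and 0 elsewhere. There 91.6%, 89.7% and 80.9% of all tested probe sets or pairs changed in the KD comparisons, in that order. The causes of these changes were not tested. The fit on the arrays compared alone equals the one given for KD against the others. For pairs, the fits with 1 probe set per gene or without KD arrays were not run. With 2 arrays per group and no detection calls, small differences of dim probe sets are the least certain.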
